A study of Mus musculus with 15 samples.

Results

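Interferon-stimulated genes are described here as 1 set of 44 genes: Samd9l and 43 genes that interferon is known to induce. The members were chosen by name, with earlier results of these data known. The lower Samd9l of the DKO lines was among those results, so its p-values below are no independent support for it. The authors' table of 12545 genes lists 39 of them, and Oas1a, Oas2, Oasl1, Ifit3 and Ifi44 were not analysed here because they have no row in it. RNA was sequenced from 15 T cell leukemia lines of FVB/NJ mice, with 1 library per line. The 8 DKO lines have the genotype E2a-/-LefF/F LckCre+, and the 7 lines named SKO have the genotype E2a-/-, so that the loss of E2a is shared by both groups. The labels of the E2a-/- lines name no floxed Lef1 alleles and no Cre. The groups thus differ in these as well as in Lef1 deletion, and their parts in a difference cannot be told apart. The floxed Lef1 alleles are deleted by a Cre driven by the Lck promoter, which is active in developing T cells. The lines were grown out in culture from the thymus of moribund mice and were not treated. The question asked of these genes was whether the lower Samd9l of the DKO lines came with a lower level of the interferon response as a whole.

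Type I interferons bind a receptor on the cell surface, and the kinases Jak1 and Tyk2 then activate transcription factors. A complex that holds Stat2 and Irf9 binds the interferon-stimulated response element (ISRE) in the promoters of its target genes, while interferon gamma acts mainly through another element, the gamma-activated site (GAS). The products sense foreign RNA, degrade or edit it, block virus entry or assembly, or feed back on the pathway, and many of them are present at a low level in cells that have met no virus. Samd9l, sterile alpha motif domain containing 9 like, encodes an interferon-inducible cytoplasmic protein that restricts virus replication and cell growth.

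Promoters of 3 of the classical targets are shown because they hold the element by which the set is usually recognised, and that of Samd9l is set beside them. The 270 bases run from 250 before to 20 after the annotated start of each gene in RefSeq, build GRCm38.p6, on the strand of the gene from 5′ to 3′, and capitals mark the ISRE core, spelled GAAANNGAAA on either strand.
Samd9l, chr6:3399552-3399821, minus strand: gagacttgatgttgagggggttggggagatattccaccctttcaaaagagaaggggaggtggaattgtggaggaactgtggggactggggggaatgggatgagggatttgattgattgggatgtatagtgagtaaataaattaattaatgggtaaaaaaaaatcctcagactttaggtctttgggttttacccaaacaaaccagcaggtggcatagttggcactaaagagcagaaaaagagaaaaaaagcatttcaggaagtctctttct
Ddx58, chr4:40239806-40240075, minus strand: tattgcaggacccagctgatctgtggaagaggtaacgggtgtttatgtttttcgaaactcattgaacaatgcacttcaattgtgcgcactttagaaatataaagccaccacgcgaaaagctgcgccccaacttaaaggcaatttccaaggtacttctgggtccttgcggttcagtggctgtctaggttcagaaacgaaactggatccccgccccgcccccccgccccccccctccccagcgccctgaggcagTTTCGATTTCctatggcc
Isg15, chr4:156200799-156201068, minus strand: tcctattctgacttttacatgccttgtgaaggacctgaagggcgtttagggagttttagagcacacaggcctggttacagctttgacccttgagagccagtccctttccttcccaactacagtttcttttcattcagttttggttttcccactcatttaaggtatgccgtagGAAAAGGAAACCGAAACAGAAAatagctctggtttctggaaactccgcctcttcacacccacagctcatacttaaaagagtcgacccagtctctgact
Ifit1, chr19:34640639-34640908, plus strand: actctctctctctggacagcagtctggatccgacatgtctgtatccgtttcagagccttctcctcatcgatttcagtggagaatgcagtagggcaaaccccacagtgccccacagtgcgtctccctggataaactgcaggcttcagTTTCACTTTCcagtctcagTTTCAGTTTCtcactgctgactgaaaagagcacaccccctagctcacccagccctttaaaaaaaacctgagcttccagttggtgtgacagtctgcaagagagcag
The core was found 3 times in the window of Isg15, overlapping itself, 2 times in that of Ifit1 and 1 time in that of Ddx58, just after the start. It was not found in the window of Samd9l. Over the full windows of 250 bases before to 50 after the start, the ISRE core was present in 18 of the 34 members with a RefSeq promoter (52.9%) and in 3.99% of all 27025 genes with one. The GAS core, TTCNNNGAA, which reads the same on both strands and was searched apart from the ISRE, was present in 11 of 34 members (32.4%) and in 9.55% of all genes. Among members in the table, the median difference between DKO and E2a-/- lines was 0.04 on the log2(CPM + 1) scale for the 16 with an ISRE core and -0.21 for the 14 without. A match of these letters is a description of the window and not a binding site.

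Expression is given as the authors' normalised read counts, in CPM. A difference is the mean log2(CPM + 1) of the DKO lines minus that of the E2a-/- lines, tested with limma, and a gene is called at an adjusted p under 0.01 over all 12545 genes. Reads on listed genes numbered 4847970 in DKO79.9, the shallowest line, and up to 21681586 in the others, so that 3 reads correspond to 0.618 CPM in DKO79.9 and to as little as 0.138 CPM in the deepest line. All 10 of the T lineage markers were listed, with a summed level of 5437 to 7876 CPM in DKO lines and 4085 to 6582 CPM in the others, while none of the 5 B cell markers had a row. Of the myeloid markers 2 of 7 were listed, at 5.81 to 14.0 and 5.48 to 12.7 CPM in sum, and of the plasmacytoid dendritic cell markers 3 of 4, at 106 to 225 and 27.4 to 156 CPM, with Siglech, the defining gene, not listed and Bst2 itself among the 3. Stroma and epithelium markers, 3 of 7, were summed at 56.6 to 1024 and 83.3 to 374 CPM, of which Col1a2, a collagen, gave up to 947 CPM. The part of these cells in the results was not tested.

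Lef1, the targeted gene, was at 103 to 210 CPM in the DKO lines and at 668 to 1558 CPM in 6 of the 7 E2a-/- lines. The library labelled SKO132 had 59.0 CPM, below every DKO line. Its label gives the genotype E2a-/- and no level of Lef1, and was kept. The cause of this low level was not tested. Counts are for the whole gene and do not separate the deleted part, so that the remaining reads in DKO lines say nothing about the allele. Over all lines Lef1 differed by -2.33 ± 0.53 (SE, 8 and 7 lines, limma adjusted p = 0.0980). DKO79.9 and the library labelled SKO132 also stood apart over the interferon-stimulated genes. DKO79.9 had the highest level of all 15 lines for 11 of the 39 members and the highest of the DKO lines for 24, and the library labelled SKO132 had the highest level for 7 and was alone the lowest for 9.

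Samd9l separated the genotypes. Its level was 0.0526 CPM at the lowest, 0.511 at the median and 2.68 at the highest in the DKO lines, and 4.84, 11.0 and 34.5 CPM in the E2a-/- lines. Every DKO line was below every E2a-/- line, and the highest DKO line was DKO79.9. Fewer cells with the gene and less RNA per cell cannot be told apart in such bulk samples. In reads, the DKO lines had between 1 (DKOTu3) and 27 (DKO241) and the E2a-/- lines between 105 (SKO95) and 641 (SKO163.5). The difference was -2.94 ± 0.38 (SE, 8 and 7 lines, adjusted p = 0.00383), and an exact permutation test over the 6435 ways to divide the lines gave p = 0.000155, the smallest that it can give. On the recovered reads, where no pseudocount is added, the log2 fold change was -4.24 with edgeR's quasi-likelihood test (adjusted p = 0.0369), -4.25 with its likelihood ratio test (adjusted p = 2.2e-06) and -4.28 with DESeq2 (adjusted p = 2.76e-09). The limma call was lost when any of 8 single lines was left out: the adjusted p was 0.0105 without DKO102.4, 0.0131 without DKO170.2, 0.0114 without DKO192.3, 0.0125 without DKO713, 0.0104 without DKOTu3, 0.01003 without SKO137.1, 0.0109 without SKO156.6 and 0.0110 without SKO186.5. The direction did not change in any of these.

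With limma, Samd9l was the 1 member of 39 that passed, against 0.0239% of all genes called lower, and Samd9l was the only member whose groups did not overlap, against 0.112% of all genes with every DKO line below every E2a-/- line. At an unadjusted p under 0.05, 5 members were lower in DKO (Samd9l, Ddx58, Sp100, Ifitm3 and Xaf1) and none was higher, against 5.83% of all genes lower and 4.33% higher. DESeq2 called Samd9l and Usp18, with 0.757% of all genes called lower, and the likelihood ratio test called Samd9l alone, with 0.351% of all genes called lower. The quasi-likelihood test called 0 members and had 8 with an unadjusted p under 0.05, each lower in DKO, against 6.07% of all genes. By sign, 23 members were lower in DKO and 16 higher, which is 59.0% lower beside 53.7% of all genes. The median difference over the members was -0.23, and -0.21 without Samd9l, beside -0.02 over all genes.

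**Figure D1:**
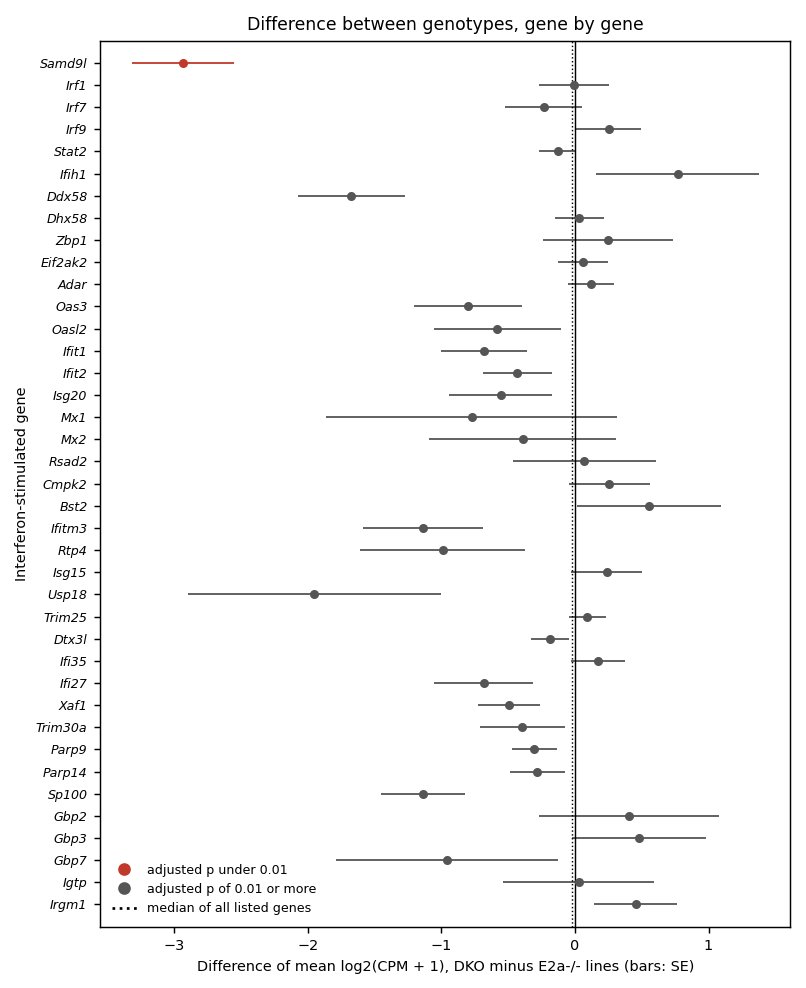
Difference of the mean log2(CPM + 1), DKO minus E2a-/- lines, for the 39 interferon-stimulated genes in order of role, with bars for the SE of the limma fit and a dotted line at the median of all listed genes. Samd9l, in red, lies farthest to the left at -2.94, Usp18 and Ddx58 follow at -1.95 and -1.67, and the other genes lie between -1.14 and 0.77.

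Ddx58, the RNA helicase RIG-I that detects the ends of viral RNA, had the second smallest p of the set. It was at 0.435, 2.88 and 10.9 CPM (lowest, median and highest) in DKO lines and at 6.54, 8.56 and 30.5 CPM in E2a-/- lines. Only DKO79.9, at 10.9 CPM, reached into the range of the E2a-/- lines, and the other 7 DKO lines were below all of them. The difference was -1.67 ± 0.40 (SE, adjusted p = 0.110, exact permutation p = 0.00124). Without DKO79.9 it was -1.90 (limma adjusted p = 0.0330), but leaving out the highest DKO line lowers the DKO mean by construction. Over the 15 fits with 1 line left out, the difference ran from -1.90 to -1.45. The limma adjusted p ran from 0.0330 without DKO79.9 to 0.222 without SKO163.5.

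No sensor passed the test, Ddx58 included. Ifih1, or MDA5, which binds long double-stranded RNA, had the highest difference of the set at 0.77 ± 0.61 (adjusted p = 0.689). It was at 0 in SKO95 and SKO137.1 and at 12.9 CPM in the library labelled SKO132, with DKO lines from 0.435 to 9.19 CPM. Dhx58 (LGP2, a regulator of both helicases), Zbp1 (a sensor of Z-form nucleic acid), Eif2ak2 (the kinase PKR, which stops translation) and Adar (which edits double-stranded RNA) differed by 0.03 to 0.25, each with a limma adjusted p of 0.847 or more. Without strand in the counting, reads of Eif2ak2 and of a gene annotated on the opposite strand cannot be told apart.

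None of the 4 transcription factors that carry the response passed the test. Irf1 was at 39.4 to 127 CPM in DKO lines and 33.9 to 113 CPM in E2a-/- lines and differed by -0.01 ± 0.26. Stat2 differed by -0.13 ± 0.14 and Irf9 by 0.25 ± 0.25, the highest of the 4. Irf7, which amplifies the response once it has begun, was lowest with -0.23 ± 0.29, at no more than 2.68 CPM in DKO and 3.06 CPM in E2a-/- lines. The limma adjusted p was 0.751 or more for all 4, and Irf7 and Irf9 each overlap another annotated gene.

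Of the oligoadenylate synthetases, which make the signal that activates RNase L, 2 of 5 were listed. Oas3 was at 0, 0.454 and 4.33 CPM in DKO and at 0.23, 1.86 and 5.70 CPM in E2a-/- lines. DKO79.9 was the high DKO line, and the next was DKO192.3 at 1.03 CPM. The difference of Oas3 was -0.80 ± 0.40 (SE, adjusted p = 0.524, exact permutation p = 0.0807), and that of Oasl2 was -0.58 ± 0.47 (adjusted p = 0.6995).

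Among antiviral effectors, 10 of 12 were listed, 7 lower and 3 higher in DKO, with a median difference of -0.49. Ifitm3, a membrane protein that hinders the entry of viruses, was at or under 3 reads in all 8 DKO lines and in 4 of the E2a-/- lines. The others were SKO156.6 at 6.07 CPM, SKO186.5 at 4.93 CPM and the library labelled SKO132 at 4.47 CPM. The difference of Ifitm3 was -1.14 ± 0.45 (SE, adjusted p = 0.404, exact permutation p = 0.0138), the lowest of the role. Ifit1, which binds viral RNA without a complete cap, was at 0, 0.151 and 0.831 CPM in DKO and at 0.0922, 0.522 and 5.86 CPM in E2a-/- lines, where SKO115.2 was the high line. Of the 15 lines, 6 had 3 reads of Ifit1 or fewer. Its difference was -0.68 ± 0.32 (SE, adjusted p = 0.4999, exact permutation p = 0.0343).

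Ifit2, of the same family, was at 12.4, 25.3 and 38.3 CPM in DKO and 21.3, 29.2 and 50.9 CPM in E2a-/- lines, and the groups overlapped over most of their range. It differed by -0.43 ± 0.26 (SE, adjusted p = 0.585, exact permutation p = 0.130). Rtp4, an interferon-induced chaperone of receptors, was at 12.6 CPM in DKO79.9 and at no more than 0.244 CPM in the other 7 DKO lines. In E2a-/- lines it was at 0 in SKO95 and the library labelled SKO132, 2.49 CPM at the median and 9.85 CPM in SKO115.2. The difference of Rtp4 was -0.99 ± 0.62 (SE, adjusted p = 0.603, exact permutation p = 0.156) and was -1.45 without DKO79.9. Bst2, or tetherin, which holds budding virus on the cell, had the highest difference of the role at 0.55 ± 0.54. It was at 22.4, 39.3 and 66.5 CPM in DKO and at 2.40, 45.1 and 63.2 CPM in E2a-/- lines, so that the E2a-/- median was the higher one, and the lowest lines were SKO95 at 2.40 CPM and SKO163.5 at 12.3 CPM. Isg20, Mx1, Mx2, Rsad2 and Cmpk2 differed by -0.77 to 0.26, with a limma adjusted p of 0.649 or more.

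Isg15 is a small protein that is attached to others as ubiquitin is, and Usp18 removes it and also dampens signaling from the interferon receptor. Isg15 was at 3.36 to 10.3 CPM in DKO lines and 1.38 to 6.83 CPM in E2a-/- lines and differed by 0.24 ± 0.27, the highest of its role. Usp18 was at 124 CPM in SKO115.2, 52.9 CPM in SKO163.5 and 20.7 CPM in SKO95. The other 4 E2a-/- lines had 0.207 to 0.871 CPM, within the DKO range of 0 to 2.47 CPM. The difference of Usp18, the lowest of its role, was -1.95 ± 0.95 (SE, adjusted p = 0.510, exact permutation p = 0.101). DESeq2 called Usp18 (log2 fold change -4.95, adjusted p = 0.00115), with the mean of the E2a-/- lines set by those 3 of 7. The ubiquitin ligases Trim25, which acts on RIG-I, and Dtx3l differed by 0.09 and -0.19.

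**Figure D2:**
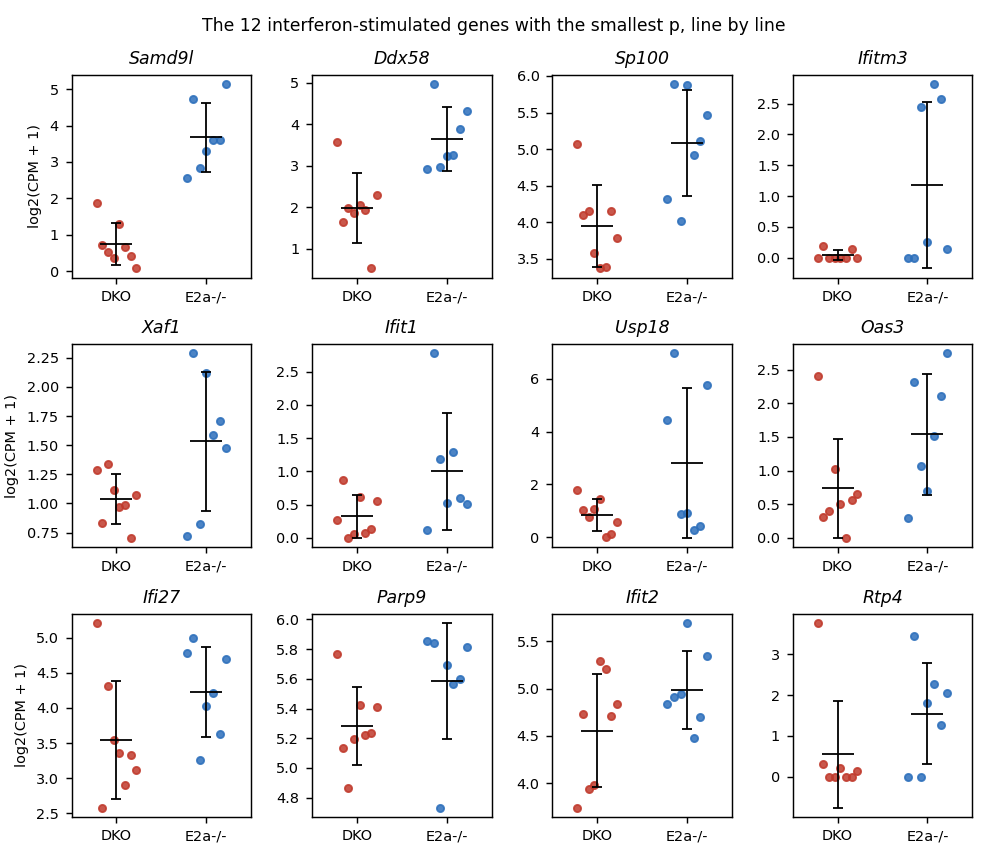
log2(CPM + 1) of the 12 interferon-stimulated genes with the smallest p, 1 point per line, with the mean and SD of 8 DKO lines (red) and 7 E2a-/- lines (blue). Only for Samd9l do the groups not overlap, and for Usp18 3 E2a-/- lines lie far above the other 12 lines.

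Of the other interferon-induced genes, 6 of 7 were lower in DKO. Sp100, a component of nuclear bodies, was at 9.34, 14.5 and 32.6 CPM in DKO and at 15.2, 33.7 and 58.4 CPM in E2a-/- lines. The high DKO line was DKO79.9, the next DKO line had 16.9 CPM, and the library labelled SKO132 was the lowest E2a-/- line. Its difference, the lowest of the role, was -1.13 ± 0.31 (SE, adjusted p = 0.185, exact permutation p = 0.00606). Xaf1, which binds an inhibitor of apoptosis, was at 0.628, 1.04 and 1.53 CPM in DKO and at 0.645, 2.002 and 3.89 CPM in E2a-/- lines, where 5 of 7 were above every DKO line. It differed by -0.49 ± 0.23 (SE, adjusted p = 0.489, exact permutation p = 0.0479).

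Ifi27 was at 4.99, 9.19 and 36.1 CPM in DKO and at 8.55, 17.5 and 30.9 CPM in E2a-/- lines, with DKO79.9 highest of all lines. It differed by -0.68 ± 0.37 (SE, adjusted p = 0.566, exact permutation p = 0.105). Parp9, which forms a complex with Dtx3l and is transcribed from the region they share, was at 28.1, 36.5 and 53.6 CPM in DKO and at 25.6, 50.7 and 56.8 CPM in E2a-/- lines. The library labelled SKO132 was the lowest of all lines. The difference was -0.30 ± 0.17 (SE, adjusted p = 0.566, exact permutation p = 0.0996). Parp9 overlaps Dtx3l and Gm15564, both annotated on the opposite strand. Without strand in the counting, reads from the overlaps cannot be told apart. Trim30a and Parp14 differed by -0.40 and -0.28, and Ifi35 had the highest value of the role at 0.17 ± 0.20.

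Interferon-inducible GTPases, which attack the vacuoles of intracellular pathogens and respond mainly to interferon gamma, were mostly higher by sign, and none passed the test. Irgm1, Gbp3, Gbp2 and Igtp were higher in DKO, by 0.03 to 0.48, and Gbp7 differed by -0.96 ± 0.83, each with a limma adjusted p of 0.642 or more. Their spread was wide in both groups: Igtp was at 7.24 to 103 CPM in DKO lines and 5.90 to 41.0 CPM in E2a-/- lines, with DKO79.9 highest, and Gbp7 was at 0.230 CPM in DKO548 and 0.276 CPM in the library labelled SKO132 but at 31.9 CPM in DKO241 and 43.1 CPM in SKO115.2. Gbp, Ifit, Oas, Mx and Trim30 genes each belong to a family with similar copies, among which the counting may have divided reads.

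**Figure D3:**
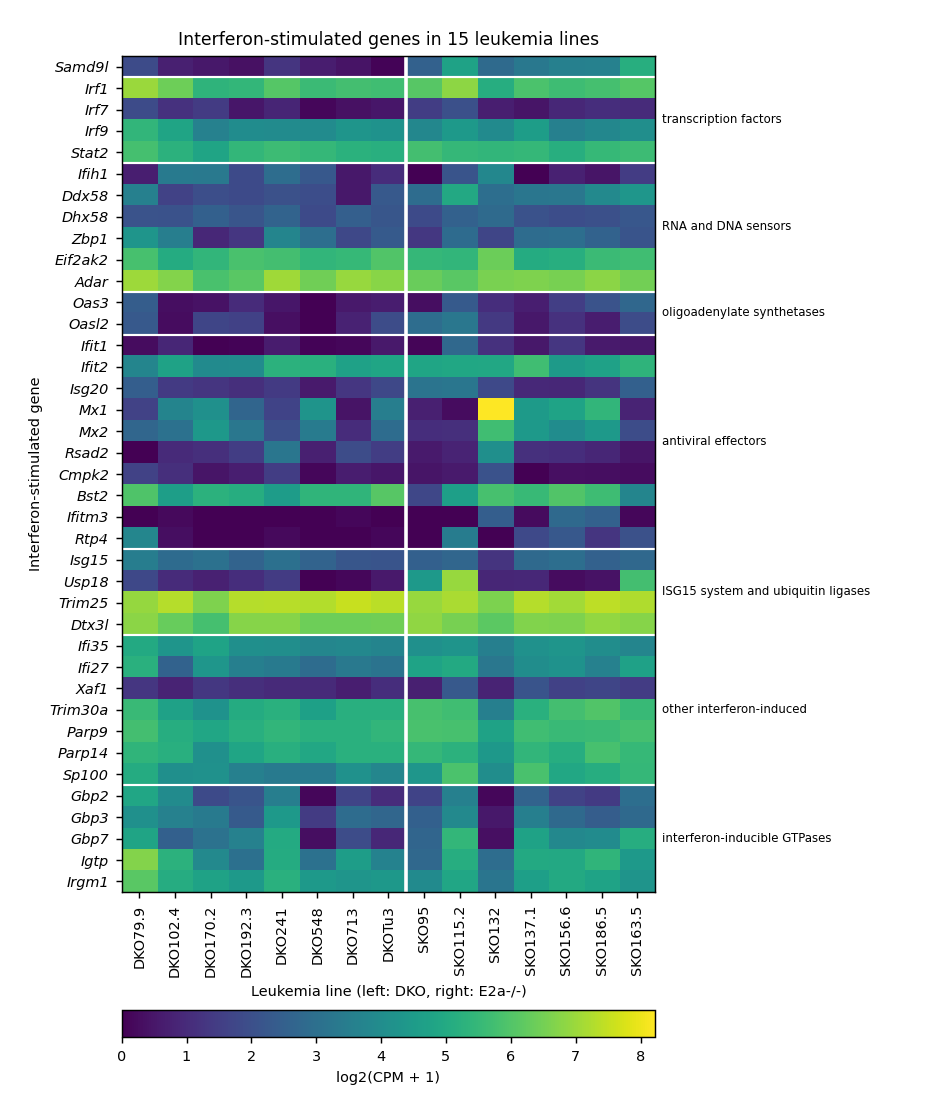
Heat map of log2(CPM + 1) for the 39 interferon-stimulated genes (rows, by role) in 8 DKO and 7 E2a-/- lines (columns). The row of Samd9l changes at the white line between the genotypes, Usp18 is bright in SKO95, SKO115.2 and SKO163.5, and Mx1 reaches 298 CPM in the library labelled SKO132.

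Several members varied widely among lines of 1 genotype, and not all in the same lines. Mx1 and Mx2, GTPases that trap viral nucleoproteins, were at 298 and 51.0 CPM in the library labelled SKO132. In SKO137.1, SKO156.6 and SKO186.5, Mx1 was at 21.1, 26.0 and 41.3 CPM. In SKO95, SKO115.2 and SKO163.5, the lines with high Usp18, Mx1 was at 0.645, 0.207 and 0.753 CPM, so that no E2a-/- line was high for both genes. Rsad2, which encodes viperin and makes a chain terminator of viral RNA, was at 16.3 CPM in the library labelled SKO132 and at 8.28 CPM in DKO241. The library labelled SKO132 thus had the highest Mx1, Mx2, Rsad2, Cmpk2 and Ifih1 of all lines and the lowest Irgm1, Gbp2, Trim30a, Parp9 and Isg15.

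Averaged over the 39 genes, the level of a line was 3.15 ± 0.36 log2(CPM + 1) (SD, n = 8) in DKO and 3.50 ± 0.29 (n = 7) in E2a-/- lines. The DKO lines ran from 2.77 in DKO548 to 3.88 in DKO79.9 and the E2a-/- lines from 3.05 in SKO95 to 3.99 in SKO115.2, and 4 of the 8 DKO lines were below all E2a-/- lines. The difference of the means was -0.35 and became -0.28 when Samd9l was left out, beside -0.03 for the mean over all listed genes. The difference is of the size of the SD among single lines of a group, which is not the error of a difference of means. Since the genes were chosen with results known, no p is given for it. By role, the difference was -0.69 for oligoadenylate synthetases, -0.45 for the ISG15 system and ubiquitin ligases, -0.45 for other interferon-induced genes, -0.41 for antiviral effectors, -0.07 for sensors, -0.03 for transcription factors and 0.08 for the GTPases.

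**Figure D4:**
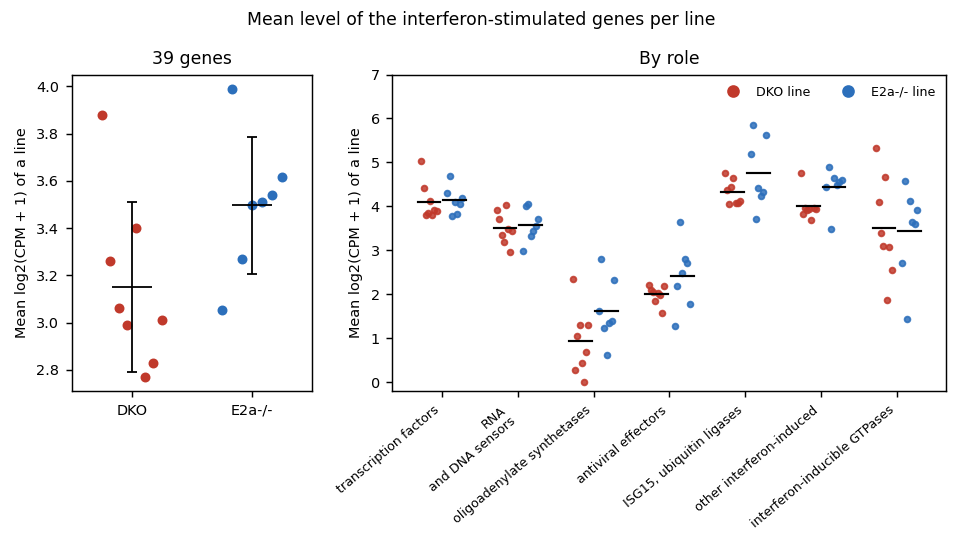
Mean log2(CPM + 1) of each line over the 39 interferon-stimulated genes (left, with group mean and SD) and over each role (right, with a bar for the group mean). DKO79.9, at 3.88, is the 1 DKO line near the top of the E2a-/- range, and the roles overlap between the genotypes.

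DKO79.9 and the library labelled SKO132 bore on these counts. With both left out, an alternative added after seeing the data, 27 members were lower and 12 higher, with a median difference of -0.32. The number called stayed at 1, Samd9l, while 13 members were lower at an unadjusted p under 0.05 and 2 were higher (Ifih1 and Rsad2), against 7.84% and 6.11% of all genes. The mean over members then differed by -0.49. Both lines had stood apart over these same members, and DKO79.9 was the highest DKO line for 24 of them. Leaving it out lowers the DKO mean of those members by construction. The rise in lower members was thus partly built in, and these counts are no test of a lower response. DKO79.9 was also the shallowest line, and the part of its depth in this was not tested.

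As a description over the 15 lines, with the mean of each genotype removed, Pearson's r of Samd9l with the other 38 members had a median of 0.361 and was above 0 for 32, while over all other genes the median was -0.01 and 48.6% were above 0. Oas3 had the highest r at 0.805 and Mx1 the lowest at -0.476. In the E2a-/- lines alone the median r was 0.333, with 30 of 38 above 0, and it was 0.373, with 24 above 0, without SKO163.5 and SKO115.2, the lines farthest from the median of Samd9l. In the DKO lines alone it was 0.578, with 30 of 38 above 0, but 0.0680, with 21 above 0, without DKO79.9 and DKO241. These were again the lines farthest from the median of Samd9l, and the value of 0.578 depended on them. The DKO lines left had only 1 to 13 reads of Samd9l, so that little of its range remained. Whether a relation holds among them cannot be told from this drop. The points of all genes share the libraries and their depth.

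In the 7 E2a-/- lines, Samd9l and Oas3 had r = 0.911 (exact permutation p = 0.00337, adjusted p over all genes = 0.369) and rho = 0.964 (exact permutation p = 0.00278, adjusted p = 0.344), and Samd9l and Ddx58 had r = 0.899 (exact permutation p = 0.00694, adjusted p = 0.369) and the same rho. Without SKO163.5 and SKO115.2, r was 0.810 for Oas3 and 0.802 for Ddx58. In the 8 DKO lines the same pairs had r = 0.647 (exact permutation p = 0.111, adjusted p = 0.739) with rho = -0.143 (exact permutation p = 0.752, adjusted p = 0.967), and r = 0.643 (exact permutation p = 0.104, adjusted p = 0.738) with rho = 0.286 (exact permutation p = 0.501, adjusted p = 0.931). Without DKO79.9 and DKO241, r was -0.675 for Oas3 and -0.208 for Ddx58. The DKO lines left had few reads of Samd9l, so that these values say little about a relation. Irgm1 had the highest r in DKO lines, 0.934 (exact permutation p = 0.00149, adjusted p = 0.699), with rho = 0.905 (exact permutation p = 0.00456, adjusted p = 0.915), and r = 0.603 without those 2 lines. None of these relations passed the adjustment, which was over 12532 genes in E2a-/- and 12534 in DKO lines. With so few lines the exact permutation p cannot fall below a floor. After adjustment over that many genes, a gene alone at this floor could not pass. Whether a relation holds cannot be told from the adjusted p-values.

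**Figure D5:**
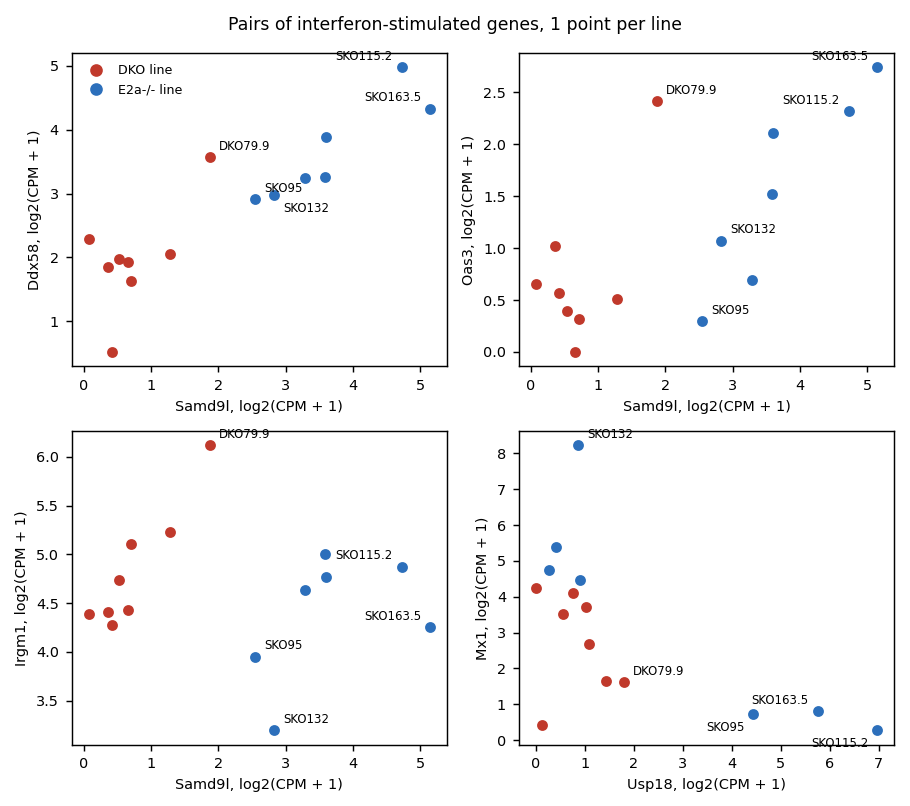
Levels of pairs of interferon-stimulated genes in log2(CPM + 1), 1 point per line, DKO in red and E2a-/- in blue. Ddx58 and Oas3 rise with Samd9l over the E2a-/- lines, DKO79.9 is the highest DKO point for Samd9l, Ddx58, Oas3 and Irgm1, and the 3 lines with high Usp18 have the lowest Mx1 of the E2a-/- lines.

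The 5 genes most like Samd9l within genotypes, among 9706 with a mean of at least 5 CPM, were no interferon-stimulated members. They were Akap6 (r = 0.937 over 15 lines), Txk (0.903), Rab37 (0.895), Tcrg-C4 (0.885) and Mpp4 (0.863), and their groups overlapped, with differences of -1.48 to -0.56 and a limma adjusted p of 0.577 or more. Of the members with such a mean, Ddx58 came first, at rank 63 (r = 0.756). Oas3 (r = 0.805) and Rtp4 (r = 0.776) had a lower mean and were not ranked. Of the 38 members other than Samd9l, 16 had an r above 0.5, beside 8.88% of all genes. By the coordinates of the table, Samd9l lies on chromosome 6 from 3322257 to 3349571, and no listed gene precedes it. The next genes, Vps50, Bet1 and Col1a2, differed by -0.24 ± 0.12, -0.22 ± 0.16 and 1.23 ± 1.34, each with a limma adjusted p of 0.533 or more.

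Genes upstream of the response were described from a list of 36 receptors, kinases, sensors and regulators, of which 28 were in the table. None was called by limma, and at an unadjusted p under 0.05 6 were lower in DKO (Tmem173, Myd88, Cgas, Socs3, Jak2 and Irf2) and 3 higher (Irf4, Ptpn6 and Socs1), beside 5.83% and 4.33% of all genes. The median difference over the list was -0.15. Tmem173, or STING, the adaptor of the DNA sensor Cgas, had a mean of 26.2 ± 12.3 CPM (SD, n = 8) over DKO lines and of 47.4 ± 16.7 CPM (n = 7) over E2a-/- lines and differed by -0.89 ± 0.28 (SE, limma adjusted p = 0.272). Myd88, an adaptor of Toll-like receptors, was at 10.1 ± 4.43 CPM (n = 8) and 17.8 ± 6.11 CPM (n = 7) and differed by -0.79 ± 0.26 (SE, limma adjusted p = 0.276). In each, 3 E2a-/- lines were above every DKO line. Of the others, named after their values were seen, Cgas differed by -1.71, Socs3 by -1.20, Jak2 by -0.60 and Irf2 by -0.52, and Irf4 by 2.14, Socs1 by 0.89 and Ptpn6 by 0.40. Socs1 and Socs3 are inhibitors of cytokine signaling. DESeq2 called Irf4 (adjusted p = 0.00419), with 0.654% of all genes called higher.

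A list of 74 further interferon-inducible genes that are no members had 53 in the table. None was called by limma, 10 were lower at an unadjusted p under 0.05 and 2 higher (Ifi204 and Ly6e, named after their values were seen), beside 5.83% and 4.33% of all genes, and the median difference was -0.12. Epsti1 was the 1 gene of this list whose groups did not overlap, beside 0.112% of all genes. It was at 0 to 0.690 CPM in DKO lines and at 0.853 to 26.0 CPM in E2a-/- lines, highest in SKO115.2, and differed by -1.66 ± 0.48 (SE, limma adjusted p = 0.211). DESeq2 and the likelihood ratio test called it (adjusted p = 0.000186 and 0.00172), with 0.757% and 0.351% of all genes called lower. Slfn8, a Schlafen gene, was at 0.403 to 6.27 CPM in DKO lines and 2.76 to 21.6 CPM in E2a-/- lines and differed by -1.63 ± 0.41 (SE, limma adjusted p = 0.137). Trim34a differed by -0.59 ± 0.20 (SE, limma adjusted p = 0.310), and 7 of the 8 DKO lines were below every E2a-/- line.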

How the data were processed

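RNA-sequencing of 15 leukemia lines was analysed from 1 table in which the authors deposited CPM values. Per the labels and the methods of the study, reads were trimmed with Trimmomatic (version 0.33), aligned with TopHat2 (version 2.1.0), counted per gene of Ensembl release 78 with HTSeq (version 0.6.1) and scaled with edgeR. Whether counting used strand, and how genes were left out of the table, are not given in the sources used here. Genotypes came from the labels, which name no batch and do not say that each line is from a separate mouse, so that p-values measure the spread between lines. The members and gene lists were chosen with earlier results of these data known.

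For all 12545 genes, log2(CPM + 1) was fitted with limma (version 3.58.1, in R version 4.3.3), letting the variance follow a trend in expression. Tests were 2-sided and adjusted by Benjamini-Hochberg. Changes of low genes are understated on this scale. Single genes were also given 2-sided exact permutation tests (Python version 3.11.15). Dividing each value by that of 1 read gave whole reads for 100% of values (tolerance 0.1). On these, edgeR (version 4.0.16) called 1 gene in all by quasi-likelihood and 84 by likelihood ratio, and DESeq2 (version 1.42.0) called 177, where limma called 6. In simulated data with 200 genes changed 4-fold between DKO and E2a-/- lines, limma recovered 72.5%, with 2 false calls among 12545 genes. The changed genes were drawn from those with a mean of at least 5 CPM, and the simulated spread followed the trend over all genes. The share recovered therefore does not hold for members that are lower or vary more. The amounts given for 3 reads allow for counting error alone, as the reads carry no molecular identifiers. Correlations of Samd9l were computed within each genotype, with exact permutation p-values adjusted over all genes.

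Members named with full values are Samd9l, those called and those with the smallest p, up to 12. Each other role is shown by its highest and lowest difference, the lists by genes with an unadjusted p under 0.01, and likeness by the 5 genes with the highest r. Alternatives were pseudocounts of 0.1 and 2, a mean of at least 1 CPM, median-of-ratios scaling, the count tests, other thresholds, SKO156.6 and SKO186.5 averaged, and each line left out. Promoters are from RefSeq (GRCm38.p6). The coordinates in the table belong to another assembly, and are given as listed. Results for some of the genes examined are left out of the text.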

Additional observations from a re-analysis of the deposited data

Results flagged for a closer look

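Each of the 39 members, and the mean over them, was examined in each genotype for a line far from the others, by the gap to the nearest line over the range of the group on the log2(CPM + 1) scale. Over 80 comparisons 10 passed, where a rate of 1 in 20 gives about 4. The genes share the same lines and are not independent, so that these numbers are no test. In DKO lines, DKO79.9 was far above the others for Oas3 (4.33 CPM, next 1.03), Rtp4 (12.6 CPM, next 0.244) and Sp100 (32.6 CPM, next 16.9), and DKO170.2 was far below them for Parp14 (16.7 CPM, next 27.7). In E2a-/- lines, the library labelled SKO132 was far above the others for Rsad2 (16.3 CPM, next 1.18) and Cmpk2 (3.199 CPM, next 0.518). It was far below them for Isg15 (1.38 CPM, next 4.75), Trim30a (10.6 CPM, next 36.3), Parp9 (25.6 CPM, next 46.4) and Gbp3 (0.441 CPM, next 4.36).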

How the results depend on the processing

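The limma call of Samd9l held under pseudocounts of 0.1 and 2, a mean of at least 1 CPM, median-of-ratios scaling and the averaging of SKO156.6 and SKO186.5. With edgeR's quasi-likelihood test the log2 fold change was -4.24 but the adjusted p was 0.0369, so that 0 members were called, and DESeq2 called 2. At an unadjusted p under 0.05 the number was 5. With each line left out in turn the number called ran from 0 to 1 and the difference of Samd9l from -3.13 to -2.69. On the pathway list DESeq2 called 1 gene, and on the list of further interferon-inducible genes DESeq2 and the likelihood ratio test called 1 each. The cause of these changes was not tested. The median difference over members stayed between -0.32 and -0.16 in 21 alternatives. No paired analysis was possible because the labels give the lines of the genotypes no shared numbers. Depth limits Ifitm3, Rtp4 and Ifit1, which had 3 reads or fewer in 12, 8 and 6 of the 15 lines.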
